A study of Homo sapiens with 3 samples.

Results

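The coagulation and fibrinolysis genes examined here are 9 genes chosen by symbol: VWF, THBD, PROCR, TFPI, F3, PLAT, PLAU, PLAUR and MMRN1. All 9 were found in a GRCh38 gene table, among 20037 protein-coding genes. The cells were hCMEC/D3, a human endothelial line from brain microvessels made to divide without limit, grown to confluence on collagen in endothelial medium, with no treatment or second genotype named in the labels. Chromatin accessibility was measured by ATAC-seq, in which the Tn5 transposase cuts and tags open DNA, in 1 library (replicate 2 in the labels). The other 2 libraries of the series were RNA-seq of the same line, quantified by transcript identifier. The tables used here do not pair those identifiers with genes, so expression of the 9 genes was not analysed here. As a model, the data are limited to a single cultured line without blood flow, blood cells or a comparison tissue.

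Endothelial cells hold clotting in check while vessels are intact and support it when they are damaged. VWF encodes von Willebrand factor, which tethers platelets and carries factor VIII, and MMRN1 encodes multimerin 1, a large protein that binds factor V. F3 encodes tissue factor, the cell-surface starter of clotting, and TFPI encodes its inhibitor. THBD (thrombomodulin) and PROCR (endothelial protein C receptor) together turn thrombin towards activating the anticoagulant protein C. PLAT and PLAU encode the plasminogen activators tPA and uPA, which start the breakdown of fibrin, and PLAUR encodes the receptor that holds uPA at the cell surface.

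The library yielded 106415 peaks from 22188172 tags kept by the authors. Each peak has a pileup (tags stacked over it, averaged over the whole peak in the authors' broad calling). It also has a fold (pileup over the local background of the same library, with 1 added to each) and a q-value, averaged in the same way. These values are not summit heights. No control library was used. The local background was taken from this library's own tags over a range of 10000 bp, so tags of the peak and its neighbours enter it. With 1 library there is no replicate error and no test, and all values below describe this library. In a bulk library, a site open in few cells and a site partly open in all cells cannot be told apart. All 9 general endothelial marker genes examined (PECAM1, CDH5, TIE1, TEK, KDR, ERG, EGFL7, ESAM and CLDN5) had a peak at a gene end, with highest end pileups of 11 to 75.0 tags. Such a peak was also found for 5 of 5 mural and fibroblast markers, 4 of 5 glial and neuronal, 3 of 5 hepatocyte, 3 of 5 leukocyte and 2 of 5 platelet markers. Over all protein-coding genes the share was 72.8%, so a peak at a gene end does not by itself mark a cell type. The liver genes ALB and TTR, the platelet genes PF4 and PPBP and the glial gene AQP4 had no peak in the gene or within 10 kb.

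In all, 73 peaks overlapped the 9 genes or the 10 kb on either side. Of these, 12 lay within 1 kb of a gene end, 45 inside a gene and 16 in a flank. At least 1 peak was present for 9 of 9 genes, compared with 89.8% of protein-coding genes. A peak at a gene end was present for 8 of 9, all but MMRN1, compared with 72.8% of protein-coding genes, so the count alone does not set these genes apart. Keeping only peaks of at least 4-fold left 5 of 9 genes with an end peak, against 56.0% of protein-coding genes, and VWF, THBD and PLAU lost theirs. The median pileup of the 73 peaks was 31.9 tags, with a range of 8.31 to 97.3, compared with 21.6 tags for all peaks. Their median fold of 3.83 was lower than the 4.49 of all peaks, and their median local background of 5.97 tags was higher than the 3.32 of all peaks. These comparisons are not matched for place. For the 12 end peaks the median pileup was 44.7 tags, against 40.1 for end peaks of protein-coding genes, and the median fold 4.11 against 4.71.

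**Figure D1:**
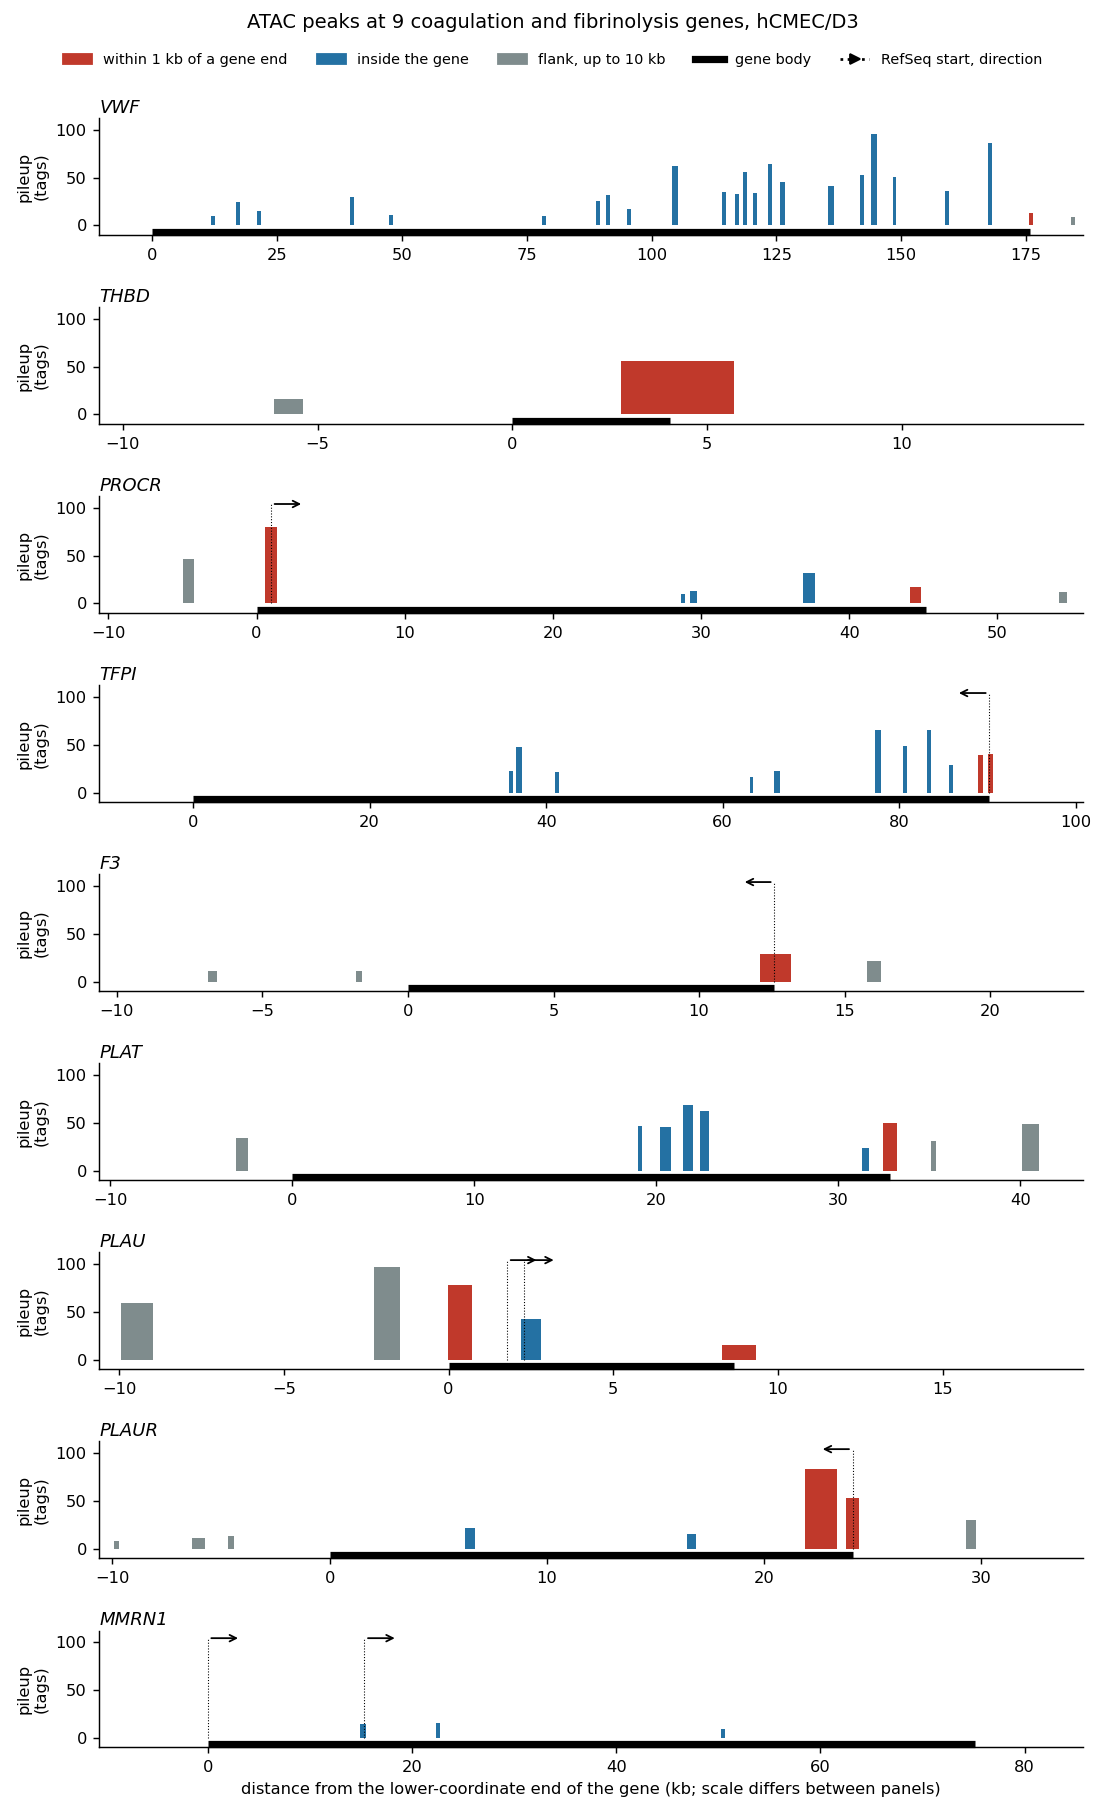
ATAC peaks at the 9 genes, with the distance from the lower-coordinate gene end in kb on the x axis (scales differ between panels), the pileup in tags on the y axis, bars for peaks coloured by place (narrow ones drawn at a minimum width), a black line for the gene body and arrows for RefSeq starts where the promoter table has them. VWF has 24 peaks, with 13.2 tags at its end and up to 95.7 inside, THBD has 1 wide peak at its end, and the 3 MMRN1 peaks stay below 15 tags.

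Gene length sets how many peaks a gene can hold, so each gene was placed among the 500 protein-coding genes nearest to it in length, as a percentile of peak number with ties split evenly. PLAT stood at the 96.2th percentile with 9 peaks, where genes of its length had a median of 3. PLAUR stood at the 95.2th with 8 peaks against a median of 3, and VWF at the 94.9th with 24 against 9. The next genes were PLAU at the 87.0th percentile with 5 peaks against 3, TFPI at the 86.1th with 11 against 6, and PROCR at the 83.1th with 7 against 4. These 6 genes lay above the upper quartile of genes of their length. F3, with 4 peaks against 3, stood at the 69.4th percentile, THBD, with 2 against 2, at the 40.5th, and MMRN1, with 3 against 5, at the 28.4th. The median over the 9 genes was 86.1. It was 70.5 when only peaks of −log10 q of at least 5 were counted and 68.8 for peaks of at least 4-fold. In bases covered by peaks, lower percentiles were found for F3 (51.0), TFPI (75.6), PLAT (89.4), PLAUR (89.2) and MMRN1 (17.8). By that measure THBD rose to 88.7, and VWF (95.4), PLAU (88.8) and PROCR (80.6) stayed close.

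**Figure D2:**
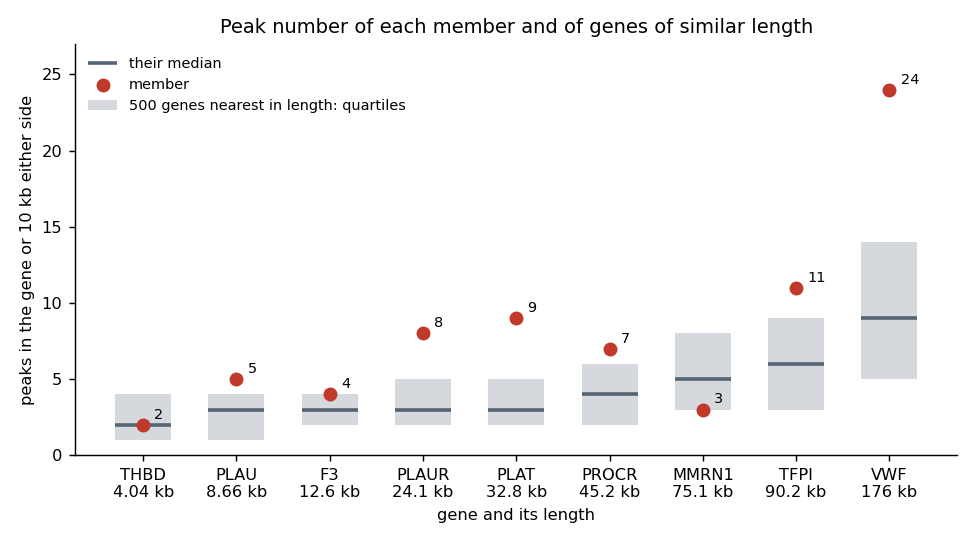
Number of peaks in each gene or 10 kb either side (red points, y axis), with genes ordered by length along the x axis, and grey boxes and dark lines for the quartiles and median of the 500 protein-coding genes nearest in length. The points of 6 genes lie above the box, and that of MMRN1 alone lies below the median.

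Where transcription starts is known here for the 6 genes that have an entry in the RefSeq promoter table (GRCh38.p14): PROCR, TFPI, F3, PLAU, PLAUR and MMRN1, with 8 annotated starts among them. Of these 8 promoter windows, 250 bases before to 50 after the start, 6 overlapped a peak, compared with 64.8% of the 22199 windows of protein-coding genes. PLAU and MMRN1 each have 2 starts, and in both the window of the second start overlapped a peak while that of the first did not. The 2 missing calls are not alike, because more tags are needed where the local background is higher. The peaks on either side of the first PLAU start had local backgrounds of 22.1 and 21.5 tags, against 2.37 at the MMRN1 peak. A missing call at the first PLAU start therefore does not show low accessibility. The gene end on the side of the start had a peak in 5 of the 6 genes, compared with 71.2% of protein-coding genes with an entry, and MMRN1 was the exception. At PLAU both annotated starts lie over 1 kb inside that end, so its end peak is not a peak over a start. At the opposite end, 2 of the 6 genes (PROCR and PLAU) had a peak, compared with 19.1%. In both genes the far-end peak was the lower, with 16.9 tags against 80.3 at PROCR and 15.2 against 78.0 at PLAU.

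The 250 bases before the start are shown for 7 of these 8 starts, 5′ to 3′ on the strand of the gene, from RefSeq GRCh38.p14. They are given because they show how unlike the promoters under these peaks are. Both MMRN1 starts are given because a peak was called over the second and none over the first. Capitals mark 7 motifs searched on both strands: the ETS factor motif with the letters CNGGAA, the AP-1 motif with TGANTCA, the GC box with GGGCGG, the KLF motif with CACCC, the TATA box with TATAAA, the GATA motif with AGATAA and the NF-kB motif of 10 letters, which opens with GGG, has 2 free bases and closes with TTTCC. A motif on the opposite strand appears as its reverse complement. The motifs can overlap each other, and adjoining hits merge into 1 run of capitals. The windows are chr20:35171822-35172071 (PROCR, plus strand), chr1:94541760-94542009 (F3, minus), chr2:187554436-187554685 (TFPI, minus), chr10:73910882-73911131 (PLAU, second start, plus), chr19:43670170-43670419 (PLAUR, minus), chr4:89879261-89879510 (MMRN1, first start, plus) and chr4:89894604-89894853 (MMRN1, second start, plus).
PROCR: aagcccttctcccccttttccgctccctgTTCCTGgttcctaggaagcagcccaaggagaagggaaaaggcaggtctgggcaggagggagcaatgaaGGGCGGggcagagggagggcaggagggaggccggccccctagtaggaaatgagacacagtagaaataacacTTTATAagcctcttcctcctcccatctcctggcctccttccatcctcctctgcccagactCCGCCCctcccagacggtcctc
F3: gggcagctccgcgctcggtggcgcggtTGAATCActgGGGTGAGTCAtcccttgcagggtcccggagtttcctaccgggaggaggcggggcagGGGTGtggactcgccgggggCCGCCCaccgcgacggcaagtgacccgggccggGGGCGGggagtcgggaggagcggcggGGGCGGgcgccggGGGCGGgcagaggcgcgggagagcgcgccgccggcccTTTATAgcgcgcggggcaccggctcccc
TFPI: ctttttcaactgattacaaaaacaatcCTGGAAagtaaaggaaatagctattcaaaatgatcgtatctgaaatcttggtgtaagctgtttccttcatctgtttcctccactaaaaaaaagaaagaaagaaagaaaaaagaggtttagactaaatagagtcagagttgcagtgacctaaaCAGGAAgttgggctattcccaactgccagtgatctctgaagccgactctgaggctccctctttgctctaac
PLAU second start: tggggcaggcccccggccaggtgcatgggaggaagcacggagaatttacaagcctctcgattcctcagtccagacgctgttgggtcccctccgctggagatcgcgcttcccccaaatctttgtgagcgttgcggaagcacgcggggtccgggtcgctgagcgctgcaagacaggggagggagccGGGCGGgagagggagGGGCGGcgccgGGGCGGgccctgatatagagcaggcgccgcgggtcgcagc
PLAUR: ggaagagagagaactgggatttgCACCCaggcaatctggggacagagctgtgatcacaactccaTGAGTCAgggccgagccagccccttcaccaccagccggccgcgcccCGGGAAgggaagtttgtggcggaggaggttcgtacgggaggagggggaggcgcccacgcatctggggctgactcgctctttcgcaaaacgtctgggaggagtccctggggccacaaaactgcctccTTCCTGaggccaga
MMRN1 first start: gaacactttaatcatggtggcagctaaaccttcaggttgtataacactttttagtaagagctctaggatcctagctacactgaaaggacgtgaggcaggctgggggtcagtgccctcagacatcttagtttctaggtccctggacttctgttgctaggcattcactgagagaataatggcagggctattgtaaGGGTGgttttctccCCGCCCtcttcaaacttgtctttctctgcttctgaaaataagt
MMRN1 second start: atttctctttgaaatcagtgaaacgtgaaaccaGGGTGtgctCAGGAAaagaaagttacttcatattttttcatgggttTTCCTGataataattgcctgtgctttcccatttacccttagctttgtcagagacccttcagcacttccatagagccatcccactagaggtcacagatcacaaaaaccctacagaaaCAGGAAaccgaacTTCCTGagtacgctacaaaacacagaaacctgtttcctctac

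These stretches differed widely in base composition. F3 had 78.0% G and C and 34 CpG dinucleotides, at the 94.6th and 93.7th percentiles of the 35116 promoters in the table, whose medians were 58.0% and 11. TFPI had 38.4% and 2 CpG, at the 10.4th and 18.8th percentiles, yet its 250 bases lay wholly within a peak, as did those of F3. The second PLAU start had 68.8% and 24 CpG, PLAUR 63.2% and 13, and PROCR 60% and 5. The MMRN1 starts had 46.0% and 2 CpG (first) and 41.6% and 3 CpG (second).

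AP-1 motifs stood 223 and 210 bases before the start of F3 and 186 bases before that of PLAUR, and 6.57% of all promoters held one. A TATA box motif stood 28 bases before the start of F3 and 82 bases before that of PROCR, each on the opposite strand, against 10.7% of promoters. GC boxes numbered 4 in F3, 3 at the second PLAU start, 2 in PROCR and 1 at the first MMRN1 start, and 42.6% of promoters held at least 1. ETS motifs, present in 54.9% of promoters, numbered 4 at the second MMRN1 start, 2 in TFPI, 2 in PLAUR and 1 in PROCR. KLF motifs, in 54.7% of promoters, were found in F3, PLAUR and both MMRN1 starts. The letters of the GATA motif (9.17% of promoters) and of the NF-kB motif (1.73%) were in none of these windows. Matches describe the letters only; factor binding was not measured.

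VWF had the most peaks of the 9 genes and the lowest end pileup of the 8 that had an end peak. VWF (gene ID 7450) spans chr12:5948877-6124670. Of its 24 peaks, 22 lay inside the gene on chromosome 12, 1 at the upper-coordinate end and 1 in the flank, and genes of its length had a median of 7 inside. The end peak, chr12:6124397-6125201, 805 bp wide, had a pileup of 13.2 tags and 3.83-fold enrichment. That pileup was at the 7.02th percentile of the 399 genes of similar length with an end peak, whose median was 41.2 tags. The highest VWF peak, chr12:6092885-6094056, reached 95.7 tags with a fold of 4.90 and lay 31.2 kb inside the upper end. The next, chr12:6116163-6117108, reached 86.4 tags with a fold of 6.62, 8.03 kb inside that end. Among all peaks of the library these pileups stood at the 99.6th and 99.2th percentiles, and the end peak at the 20.6th.

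The interior VWF peaks were uneven along the gene. The side of the gene midpoint nearer the upper end held 16 of the 22, with a median pileup of 43.4 tags, and the other side held 6, with a median of 12.8. The highest fold of the gene, 7.80, was on the sparser side, at chr12:5988615-5989206, where the pileup was 29.3 tags. The local background moved with the pileup, with medians of 11.2 tags on the denser side and 2.63 on the sparser one. Tags of neighbouring peaks enter this background, so it is not independent of the pileup. Its part in the difference was not tested. The peak at chr12:6039857-6040353 also covers the small nucleolar RNA gene SNORA120. The promoter table has no entry for VWF.

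MMRN1 (gene ID 22915, chr4:89879511-89954614) had the lowest maximum pileup and the smallest share of bases under peaks among the 9 genes. Its 3 peaks, all inside the gene on chromosome 4, had pileups of 14.4, 14.9 and 9.39 tags and covered 1.35% of the gene and its flanks. The highest pileup was at the 9.8th percentile of genes of similar length, whose median was 51.1 tags. The peak at chr4:89894461-89895055, 595 bp wide with a fold of 4.57, covered the whole 250-base stretch shown above for the second start, and its centre lay 96 bases before that start. No peak was called at the first start or within 10 kb outside the gene, so accessibility there was not detectable at this depth, where the lowest pileup called in the library was 8.0 tags. None of the 3 peaks was kept when the 66460 peaks of highest pileup were taken.

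F3 and TFPI, the starter of clotting and its inhibitor, each had a peak over the start, with 9 peaks inside TFPI and 0 inside F3, where genes of their lengths had medians of 4 and 0. F3 (gene ID 2152, chr1:94529173-94541759) had a single end peak, chr1:94541255-94542319, 1065 bp wide, with 28.6 tags at 4.25-fold and its centre 28 bases before the start. That pileup was at the 22.8th percentile of genes of similar length with an end peak. No peak lay inside the gene, and the 3 flanking peaks had pileups of 11.5, 11.2 and 21.8 tags. The F3 end peak and the flanking peak at chr1:94544939-94545412 also overlap the gene LOC124904223.

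TFPI (gene ID 7035, chr2:187464230-187554435) had its start peak at chr2:187554315-187554852, at 39.8 tags and 4.28-fold, and a second end peak at chr2:187553109-187553710 with 39.2 tags. Of the 9 interior peaks, the highest were chr2:187547383-187547807 with 65.3 tags, 6840 bases downstream of the start, and chr2:187541510-187542146 with 65.1 tags, 12607 bases downstream. Both interior peaks were higher than the start peak, which stood at the 35.9th percentile of genes of similar length. From the far end of the gene, the first 35.8 kb held no peak. The gene CALCRL-AS1 overlaps 8 of the 11 TFPI peaks, and the strand of an ATAC peak is not defined, so these cannot be assigned to either gene.

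The thrombomodulin gene and the protein C receptor gene, whose products work together, differed in the shape of their end peaks. THBD (gene ID 7056, chr20:23045633-23049672), a gene of 4.04 kb, had 1 peak at its upper end, chr20:23048421-23051319, 2899 bp wide, which ranked 25th in width among all 106415 peaks. Its pileup was 56.3 tags, at the 64.4th percentile of genes of similar length with an end peak, and its fold was 2.90, over a local background of 18.7 tags. Tags of this wide peak itself enter that background, so the fold is not independent of the width. The part of the width in the fold was not tested. The remaining peak, in the flank, had 16.2 tags. Counted in bases covered by peaks, THBD stood at the 88.7th percentile of genes of its length, and counted in peaks at the 40.5th. The promoter table has no entry for THBD.

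PROCR (gene ID 10544, chr20:35171096-35216259) had a narrower peak with a higher average pileup at its start, chr20:35171649-35172473, 825 bp wide. This peak had a pileup of 80.3 tags at 6.76-fold, and its centre lay 11 bases before the start. Its pileup was at the 95.3th percentile of genes of similar length with an end peak, and the local background was 11 tags. The highest fold of all 73 peaks, 8.03, was at chr20:35166151-35166846, in the flank, centred 5574 bases before the PROCR start, with a pileup of 46.1 tags. Inside the gene, chr20:35207983-35208762 reached 31.9 tags with a fold of 7.16, and the other 2 interior peaks stayed at 9.77 and 13 tags. All 7 PROCR peaks also lie within the span of MMP24-AS1-EDEM2, a readthrough gene.

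The plasminogen activator genes were both accessible away from their ends. At PLAU (gene ID 5328, chr10:73908832-73917494), the highest peak of all 73, with 97.3 tags at 4.38-fold, was chr10:73906557-73907355, in the flank, centred 3654 bases before the first annotated start. The end peak at chr10:73908817-73909543 had 78.0 tags, at the 88.1th percentile of genes of similar length with an end peak, and its centre lay 1430 bases before that start. The peak over the second start, chr10:73911044-73911637, had 42.2 tags but a fold of 1.92, the lowest of the 73 peaks, and covered 88 of the 250 bases shown. These 3 peaks fall within 5.08 kb and each had a local background above 20 tags, from 21.4 to 22.1. A further flanking peak, chr10:73898899-73899860, had 58.8 tags, and the peak at the far end had 15.2. The gene C10orf55 overlaps the peak over the second start and the far-end peak.

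At PLAT (gene ID 5327, chr8:42174718-42207565), the end peak at chr8:42207195-42207962 had 49.6 tags at 5.36-fold, at the 55.7th percentile of genes of similar length with an end peak. Inside the gene, 4 neighbouring peaks within 3.92 kb had pileups of 46.4, 45.4, 68.9 and 62.5 tags, and the highest, chr8:42196190-42196726, lay 11.1 kb inside the upper end. Their folds, 2.84, 2.72, 4.11 and 3.72, were below that of the end peak, and their local backgrounds ran from 15.7 to 16.1 tags. The 3 flanking peaks had 34.2, 31.0 and 48.7 tags. No PLAT peak overlapped another gene. The promoter table has no entry for PLAT.

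PLAUR (gene ID 5329, chr19:43646095-43670169) had 2 peaks at the end that holds its start. The first, chr19:43669873-43670447, had its centre 9 bases after the start, with 53.2 tags and a fold of 2.70. The second, chr19:43667961-43669435, was 1475 bp wide, with 83.1 tags and a fold of 4.33, and its centre lay 1471 bases downstream. The higher one was at the 95.6th percentile of end pileup for genes of similar length. Local backgrounds were 19.0 and 18.4 tags. The interior peaks were lower, with 21.2 and 15.4 tags. Of the 4 flanking peaks, 3 lie within the neighbouring gene CADM4 and had 8.31 to 12.8 tags, and the fourth, on the other side, had 29.7 tags. The last of these and both peaks near the start, 3 in all, also overlap the gene LOC124904724.

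Across the 9 genes, the highest pileup lay away from the ends in 5 genes (VWF, TFPI, PLAT, PLAU and MMRN1) and at an end in 4. The same share was not computed over all protein-coding genes, so this count does not show a trait of these genes. In order of highest end pileup, PLAUR (83.1 tags), PROCR (80.3) and PLAU (78.0) were followed by THBD (56.3), PLAT (49.6), TFPI (39.8), F3 (28.6) and VWF (13.2). With 1 library the spread of these values is unknown, so neighbours in this order are not shown to differ. Over all protein-coding genes with such a peak the median was 45.7 tags. The PLAUR and PROCR values rest on peaks whose nearest edges lie 734 and 553 bp from the gene end, and a window of 500 bp leaves them out.

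**Figure D3:**
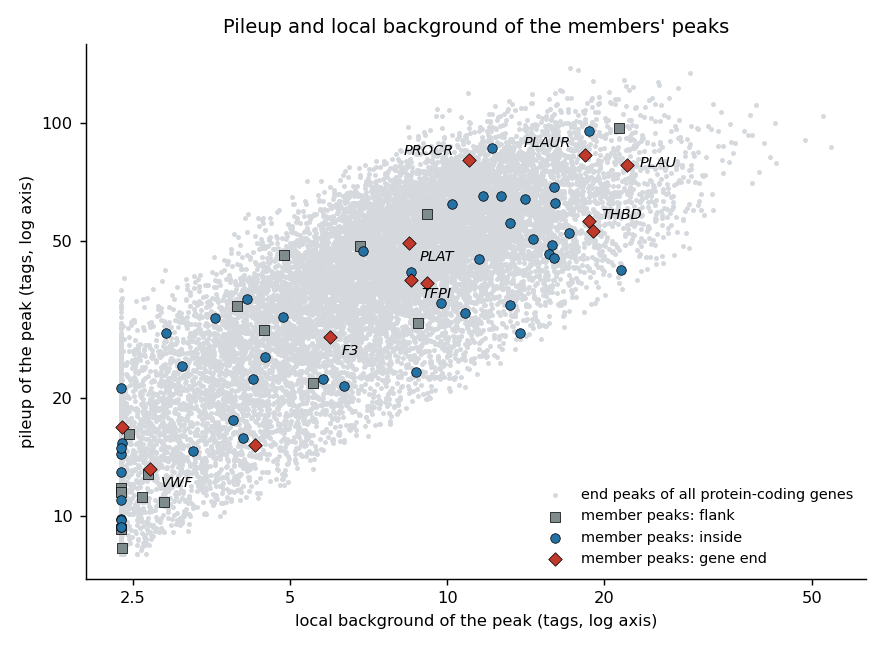
Pileup (y axis, tags, log scale) against local background (x axis, tags, log scale) for the 73 peaks of the 9 genes, marked by place, over the 15869 end peaks of protein-coding genes in light grey, with the highest end peak of each gene labelled. The column of points at the left is the lowest background, 2.37 tags, which 15 of the 73 peaks share, and the VWF end peak lies close to it while PLAUR, PLAU and THBD lie at backgrounds of 18.4 to 22.1 tags.

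Other genes of the pathway were grouped by role into 5 lists of 41 genes in all and counted in the same way. For these lists too, the share of all protein-coding genes with an end peak is 72.8%, and the lists are small. All 4 thrombin and protease receptor genes had an end peak, with highest end pileups of 17.6 to 36.0 tags, below the median of 45.7 over protein-coding genes with an end peak. F2RL1, with 5 peaks, and F2RL3, with 4, had the most. Of 9 surface and secreted regulators of clotting, 7 (77.8%) had an end peak, with a median of 60.4 tags. ENTPD1, which breaks down the platelet activator ADP, had 14 peaks and an end pileup of 81.2 tags, and GAS6, a vitamin K-dependent ligand, had 8 and 52.6 tags. SELP and F8 had no end peak. Of 7 inhibitors and receptors of plasminogen activation, 6 (85.7%) had an end peak, with a median of 60.9 tags. ANXA2, part of a plasminogen receptor, and LRP1, which clears activator and inhibitor complexes, had 15 peaks each, at the 99.9th and 97.5th percentiles of genes of their length. SERPINB2 had none at an end.

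The genes made mainly by the liver differed in their counts. An end peak was present for 3 of 13 clotting factor genes, or 23.1%, and for 2 of 8 inhibitor and fibrinolysis genes, or 25%, against 72.8% of protein-coding genes. F12 reached 40.9 tags at an end, F5 22.3 and F2 11.6 in the first list, and CPB2 42.7 and SERPINA5 22.9 in the second. F5, with 8 peaks, and FGB, with 4, had the most in the first list, and SERPINA5, with 6, and PROC, with 5, in the second. F9, F11 and HRG had no peak in the gene or within 10 kb. The median number of peaks was 2 in the first list and 3 in the second, compared with 3 over all protein-coding genes and 7 over the 9 genes. Among genes of similar length, the median percentiles were 26.5 and 41.9, against 86.1 for the 9 genes. A high peak number was not particular to the 9 genes. The median percentile was 97.5 for inhibitors and receptors of plasminogen activation and 90.4 for the endothelial markers. It was 66.8 for the protease receptors and 64.7 for the regulators of clotting. The other marker lists had 71.8 (glial and neuronal), 57.1 (mural and fibroblast), 49.4 (megakaryocyte and platelet), 41.4 (leukocyte) and 34.9 (hepatocyte). Within lists the spread was wide. Endothelial markers ran from 47.1 (KDR) to 99.8 (PECAM1), and glial and neuronal ones from 3.8 (AQP4) to 98.7 (GFAP).

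**Figure D4:**
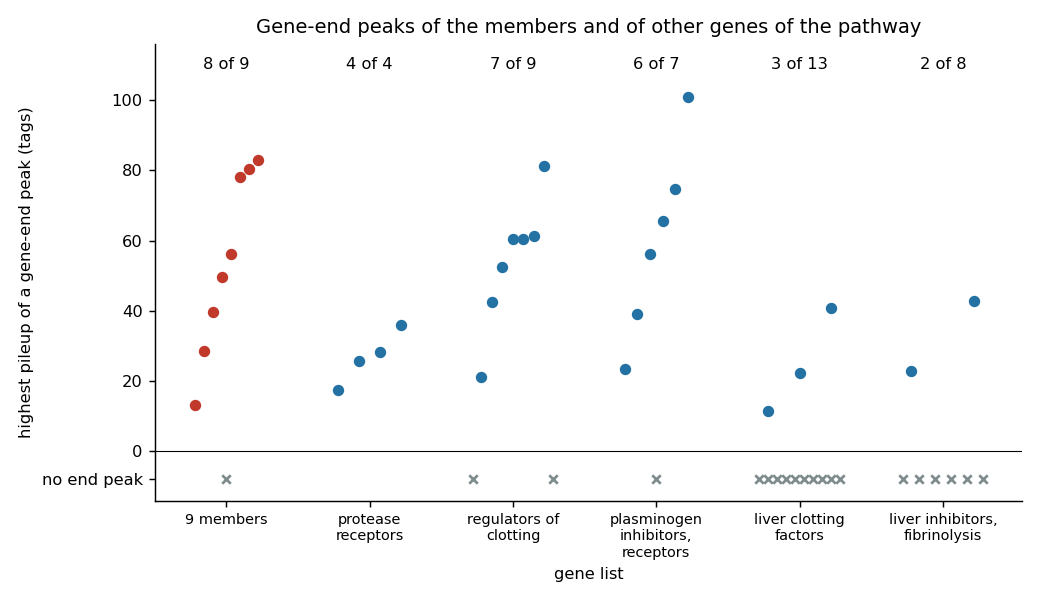
Highest pileup of a gene-end peak (y axis, tags) for the 9 genes, called members in the plot, and for the 5 pathway lists (x axis); each point is a gene, crosses are genes without an end peak, and counts at the top give genes with one. Most genes of both liver lists are crosses, and 8 of the 9 genes have a value, from 13.2 to 83.1 tags.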

How the data were processed

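Peaks were called by the authors with MACS 2.2.7.1 on 1 ATAC library without a control, per the file headers, with broad calling at q of 0.05 (0.1 for weak regions), a shift of -100 bp, an extension of 200 bp, single-end mode and 1 tag kept per position, leaving 22188172 of 31532245 tags. The effective genome size in the header, 1870000000 bp, is the caller's mouse preset and sets the lowest local background, 2.37 tags, which 20.5% of the peaks at the 9 genes and 34.7% of all peaks share. Each deposited peak carries a pileup signal in tags, a fold, and p- and q-values as −log10, all the authors' own values. The fold is the ratio of pileup to local background, with 1 added to each. Pileup was not scaled. The submitters' processing notes list GRCh38 and mm10, Bowtie2, SAMtools 1.13 and Picard without roles; the aligner settings are not given in the sources used here.

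Local background was computed as (pileup + 1) / fold − 1, an approximation because pileup and fold are averages over the peak. Genes were taken from a RefSeq table of GRCh38.p14. With no offset 64.8% of 22199 promoter windows held a peak, and at offsets of 2000 to 50000 bp at most 6.47% did. A peak counted with 1 bp of overlap, as gene end (within 1 kb of either end), otherwise inside, otherwise flank (10 kb). Percentiles are ranks among the 500 protein-coding genes nearest in length, not tests. Counting was tested on simulated data. Alternatives changed windows, flanks, peak filters, overlap and reference genes. All 9 genes are named; of the pathway lists, those without any peak and the 2 with most peaks, plus those needed to account for a count. The 9 genes, the 5 pathway lists, the markers and motifs were chosen with earlier results of these data known. Planned transcript levels were not computed because transcripts could not be paired with genes. Python 3.11.15, pandas 2.3.3, scipy 1.17.1 and matplotlib 3.10.9 were used.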

Additional observations from a re-analysis of the deposited data

How the results depend on the processing

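Of 32 alternative values for the summary results, 22 were close to the value given above (a count within 1.5 times, a percentile within its 95% Wilson interval) and 10 were not. That interval served only as a margin for calling values close. It does not measure the spread over the 9 genes, whose percentiles in peak number ran from 28.4 to 96.2. The 8 genes with an end peak became 5, and the 73 peaks became 34, with peaks of at least 4-fold. The median percentile in peak number of 86.1 became 89.7 without flanks, 89.2 for peaks on no other protein-coding gene, 70.5 at −log10 q of at least 5, 68.8 at 4-fold, 77.9 for as many peaks by pileup and 81.9 against all protein-coding genes. The median percentile in end pileup of 60 became 46.0 with a window of 500 bp, which leaves out the higher PROCR and PLAUR peaks, and 53.5 at 4-fold. The causes of the other moves were not tested, beyond fewer peaks under a filter. For single genes, 49 of 81 values were close and 32 were not; PROCR had 0 peaks on no other protein-coding gene, because it lies within a readthrough gene. No paired analysis was possible because the result comes from 1 ATAC library and from no test. Transcript levels were not run. The lowest pileup of a called peak was 8.0 tags, which limits what a missing peak shows. Calling was by q-value, so more tags were needed where the local background was higher.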

Other observations

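The genes below were singled out after their values were seen. S100A10, the partner of ANXA2 in a plasminogen receptor, had 8 peaks, at the 99.1th percentile of genes of similar length, and an end pileup of 101 tags, above each of the 8 end values of the 9 genes. PROS1, which encodes protein S, the cofactor of activated protein C, had 2 peaks, at the 12.8th percentile, although its highest pileup was 92.4 tags. SERPINA5, which encodes the protein C inhibitor, had 6 peaks, 5 of them in its flanks, with an end pileup of 22.9 tags and a highest pileup of 89.2 tags.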
